A study of Mus musculus with 12 samples.

Results

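Net39 knockout (KO) quadriceps muscle was compared with wild type (WT) at postnatal day 9 (P9), across every gene whose mean level over the 6 libraries was at least 1 FPKM (fragments per kilobase of transcript, scaled to the size of the library). This kept 13789 of the 53733 genes in the P9 table, of which 24591 were listed at 0 in all 6 libraries. Each genotype had 3 mice, all 9 days old and given as C57BL/6, and polyA RNA of the quadriceps was made into TruSeq libraries. The KO line came from a CRISPR deletion of exon 1 in B6C3F1 zygotes and was crossed to C57BL6N, so the gene is missing from every cell of the body and not from muscle alone. Libraries are numbered in the order of the table columns, and values are given for WT libraries 1 to 3 and then KO libraries 1 to 3.

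Net39, listed in the table as Plpp7, is a transmembrane protein of the inner nuclear membrane that is made mainly in skeletal and cardiac muscle, where chromatin is held against the nuclear envelope. In the weeks after birth mouse limb muscle leaves the embryonic and neonatal myosins, builds fast contractile fibers, and takes up the glycolytic program of those fibers. Genes of several roles therefore change level quickly at this age in muscle that is developing normally.

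Plpp7 measured 37.0, 28.4 and 32.8 FPKM in WT and 0.432, 0.488 and 0.537 in KO. The groups stood far apart, with a low residual signal in each KO library, and no library contradicted its genotype label. Its level fell in KO (log2 fold change -5.07, SE 0.13, adjusted p 2.5e-05), and with each library left out in turn the log2 fold change lay between -5.16 and -4.98. A log2 fold change is here the KO mean minus the WT mean of log2(FPKM + 0.5), so genes near 1 FPKM are drawn toward 0, and p-values come from limma with Benjamini-Hochberg adjustment over all genes tested. The largest changes were named by a fixed rule on call, overlap, size and type of name. The lists were chosen with earlier results of these data known, and the list members to describe with the values known. Outside the rule were Rtl1, Nnt (2 entries), Acss1, Mvd, Myh14, Glul, Nctc1, Mir3070a, Mir3070b, Mir23a, Mir24-2, Mir351, Mir8114, Tpi-rs11, Pgk1-rs7 and Fabp3-ps1, which were chosen after their values were seen.

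All 18 genes of a list of skeletal muscle identity genes were above the filter and none was at 0, and their summed level was 112099, 118613 and 110293 FPKM in WT and 73506, 67477 and 64118 in KO. Acta1, which encodes skeletal actin, was the most abundant at 28171, 26645 and 31452 FPKM in WT and 19294, 18244 and 18354 in KO. The tissue of every library was thus muscle, while the KO sums lay below all WT sums. This list includes genes of fast fibers, such as Mylpf, Actn3 and Casq1, described below. Bulk RNA cannot tell fewer cells of a type from less RNA per cell. Xist, the transcript that silences 1 X chromosome in females, was present in all libraries at 28.6, 28.6 and 28.8 FPKM in WT and 37.2, 32.4 and 36.0 in KO. The Y-linked genes Ddx3y, Eif2s3y and Usp9y were at 0 in every library, and Kdm5d and Uty stayed at or below 0.00580. On the Y chromosome 3 genes other than these passed the filter, with 0 called and a median log2 fold change of 0.05. The study describes its mouse experiments as balanced by sex, which differs from these values, and the labels do not give the sex of any mouse. Xist itself was a little higher in each KO library than in each WT library (log2 fold change 0.29, adjusted p 0.087).

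A gene was called when its adjusted p was under 0.05 and its absolute log2 fold change was above 1. Of the 13789 genes 462 were called (3.35 percent), 319 higher in KO (2.31 percent) and 143 lower (1.04 percent). With the adjusted p alone there were 1843 genes (13.4 percent), 1475 higher and 368 lower, and 4337 genes had an unadjusted p under 0.05. KO and WT values did not overlap in 5292 genes (38.4 percent), and all 462 called genes were among them. Separate groups in a called gene, where given below, therefore add no support to its call. Leaving out each library in turn kept 274 of the 462 calls in every fit. Log2 changes past 2 in size were seen in 78 called genes, 43 higher and 35 lower.

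The count of genes above 0 change was uneven. The median log2 fold change over all genes tested was 0.16 (quartiles -0.03 and 0.35), and 9831 of 13789 genes lay above 0. The 10 most abundant genes held 24.5, 24.3 and 25.1 percent of the FPKM sum in WT and 22, 21.3 and 21.3 percent in KO. When each library was centred on its median, the median change became -0.03 and 398 genes were called, 186 higher and 212 lower, against 319 and 143 in the main fit. The balance of directions therefore rests on how libraries are scaled, whereas 329 genes were called both ways. Changes of single genes below are read against the median of 0.16.

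**Figure D1:**
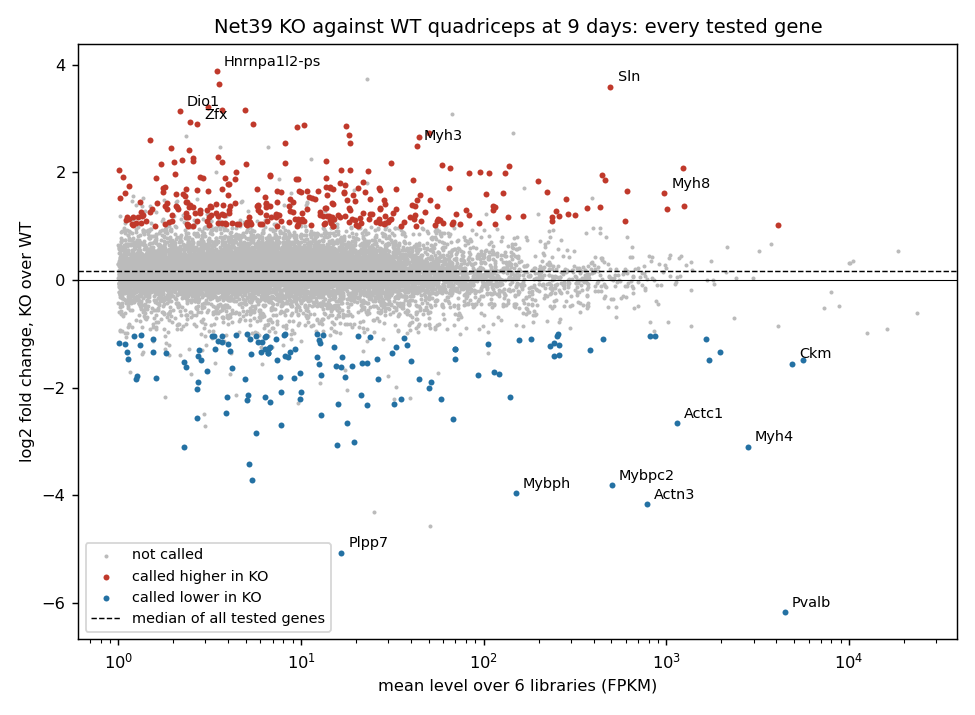
Change in KO against mean level for each of the 13789 genes tested. Red and blue mark called genes, and the dashed line marks the median change.

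The scatter of change against level showed called genes from the lowest levels up to some of the highest. The high end held decreases, among them the parvalbumin, tropomyosin and creatine kinase genes described below, and increases, among them H19 and Fabp3.

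Among the genes called higher without overlap and with a given name, the largest increase was in Hnrnpa1l2-ps, a processed pseudogene related to the RNA-binding protein hnRNP A1. It was listed at 0, 0 and 0 FPKM in WT and 8.16, 6.00 and 6.62 in KO, so it is given without a fold change. Its place in this order, like that of other genes near 0 in WT, rests on the 0.5 added to each value. Pseudogenes of this kind share sequence with their parent gene and other copies, and reads may move between them, so its level is uncertain. Sln encodes sarcolipin, a small inhibitor of the calcium pump of the sarcoplasmic reticulum, and measured 36.9, 139.5 and 76.3 FPKM in WT and 847, 1141 and 725 in KO. WT library 1 was lowest, yet no WT value came near the KO values, and Sln rose (log2 fold change 3.59, SE 0.45, adjusted p 0.0057).

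Lrrc52, an auxiliary subunit gene of large potassium channels, measured 0.278, 0.161 and 0.146 FPKM in WT and 4.71, 5.86 and 7.35 in KO (log2 fold change 3.21, adjusted p 8.2e-04). Kcnf1, a modulatory voltage-gated potassium channel subunit, measured 1.78, 2.92 and 1.72 FPKM in WT and 18.0, 17.6 and 20.01 in KO (log2 fold change 2.88, adjusted p 9.7e-04). The KO values of both genes were clear of WT, and those of Kcnf1 were tight. Dio1, which encodes the type 1 deiodinase that activates and clears thyroid hormone, stood at 0, 0.0538 and 0 FPKM in WT and 2.63, 6.75 and 3.55 in KO (log2 fold change 3.13, adjusted p 0.0025). Tmem171, a transmembrane protein of little known role, stood at 0.149, 0.130 and 0.228 FPKM in WT and 4.95, 3.25 and 6.04 in KO (log2 fold change 2.94, adjusted p 0.0013). These genes were named by a rule that required groups without overlap, and in each the KO values lay well above WT.

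Zfx, an X-linked zinc finger transcription factor, measured 0.260, 0.387 and 0.146 FPKM in WT and 5.11, 5.20 and 5.05 in KO. The 3 KO values were nearly equal, and the WT values were close to 0. The rise was a log2 fold change of 2.89 (adjusted p 7.2e-04), while the median over 458 tested X-linked genes was 0.17. Khdrbs3, an RNA-binding splicing regulator, measured 2.92, 5.08 and 3.76 FPKM in WT and 25.3, 35.1 and 33.4 in KO (log2 fold change 2.86, adjusted p 0.0012). Snai3, a zinc finger repressor of the Snail family, measured 1.36, 2.03 and 2.1 FPKM in WT and 9.96, 16 and 25.4 in KO (log2 fold change 2.84, adjusted p 0.004). Groups without overlap were part of the rule that named both genes.

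Mtus2, a microtubule-associated protein gene, measured 0.218, 0.392 and 0.366 FPKM in WT and 7.64, 8.85 and 4.64 in KO (log2 fold change 3.15, adjusted p 0.0013). Pcp4l1, a calmodulin-binding peptide gene, measured 11.1, 13.8 and 11.3 FPKM in WT and 49.9, 126 and 87.8 in KO (log2 fold change 2.72, adjusted p 0.0042). KO library 1 was the lowest of the KO group for Pcp4l1 and KO library 3 for Mtus2. Klk1b22, a kallikrein protease gene with many close relatives that share reads, stood at 0, 3.48 and 0 FPKM in WT and 10.9, 5.64 and 9.45 in KO (log2 fold change 3.15, adjusted p 0.045). Only a single WT library expressed it, and its call ended without WT library 1 (2.65, adjusted p 0.13), WT library 3 (2.65, adjusted p 0.098), KO library 1 (2.97, adjusted p 0.12), KO library 2 (3.41, adjusted p 0.085) or KO library 3 (3.07, adjusted p 0.12).

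The lowest log2 fold change was that of Pvalb, which encodes parvalbumin, the calcium buffer that speeds relaxation of fast fibers. It measured 9228, 9356 and 7631 FPKM in WT and 288, 50.3 and 121 in KO. The WT values were all high, and the KO values were spread more widely, with KO library 2 lowest. Pvalb fell (log2 fold change -6.17, SE 0.56, adjusted p 0.0021). Actn3, the fast-fiber alpha-actinin of the Z disc, measured 1490.3, 1383 and 1505 FPKM in WT and 197, 37.7 and 70.9 in KO and had the same order of KO libraries (log2 fold change -4.17, SE 0.53, adjusted p 0.0059).

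The myosin-binding protein genes were next. Mybph, myosin-binding protein H, measured 323, 241 and 277 FPKM in WT and 29.8, 14.6 and 12.1 in KO (log2 fold change -3.96, adjusted p 0.0014). Mybpc2, the fast form of myosin-binding protein C, measured 989, 776 and 1032 FPKM in WT and 111, 43.9 and 57.6 in KO (log2 fold change -3.81, adjusted p 0.0018). KO library 1 was highest of the KO group in both genes, well under the WT values. Actc1, the cardiac actin gene that is expressed in muscle before birth, measured 2201, 1473 and 2226 FPKM in WT and 385, 275 and 269.8 in KO and fell as well (log2 fold change -2.66, adjusted p 0.0014). Pdzd7, a PDZ scaffold protein gene known from hair cells, measured 9.27, 13.6 and 8.34 FPKM in WT and 0.629, 0.202 and 0.192 in KO (log2 fold change -3.71, adjusted p 0.0011). Exoc3l4, which resembles an exocyst subunit, measured 32.5, 32.2 and 21 FPKM in WT and 2.67, 2.92 and 3.12 in KO (log2 fold change -3.07, adjusted p 8.2e-04). Its KO libraries agreed closely, and none of these 5 genes lost its call in any fit with a library left out.

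The remaining large decreases were less even. Mstn encodes myostatin, the secreted inhibitor of muscle growth, and measured 43.6, 32.6 and 26.7 FPKM in WT and 9.20, 2.13 and 2.50 in KO. KO library 1 was nearer to WT than the other KO libraries but still below the lowest WT value. Mstn fell (log2 fold change -3.01, adjusted p 0.012), and the call ended without WT library 1 (-2.82, adjusted p 0.054). Tpbgl, a gene resembling the trophoblast glycoprotein gene, measured 15.1, 12.2 and 13.4 FPKM in WT and 3.33, 0.478 and 2.22 in KO (log2 fold change -2.69, adjusted p 0.015), and its call ended without WT library 1 (-2.61, adjusted p 0.061). Chac1, a glutathione-degrading enzyme gene induced by ATF4, measured 7.10, 2.66 and 20.7 FPKM in WT and 0.178, 0.229 and 0.345 in KO (log2 fold change -3.42, adjusted p 0.018). Its WT values ran over a wide range, and the call ended without WT library 1 (-3.45, adjusted p 0.064), KO library 1 (-3.35, adjusted p 0.053), KO library 2 (-3.40, adjusted p 0.055) or KO library 3 (-3.51, adjusted p 0.052).

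**Figure D2:**
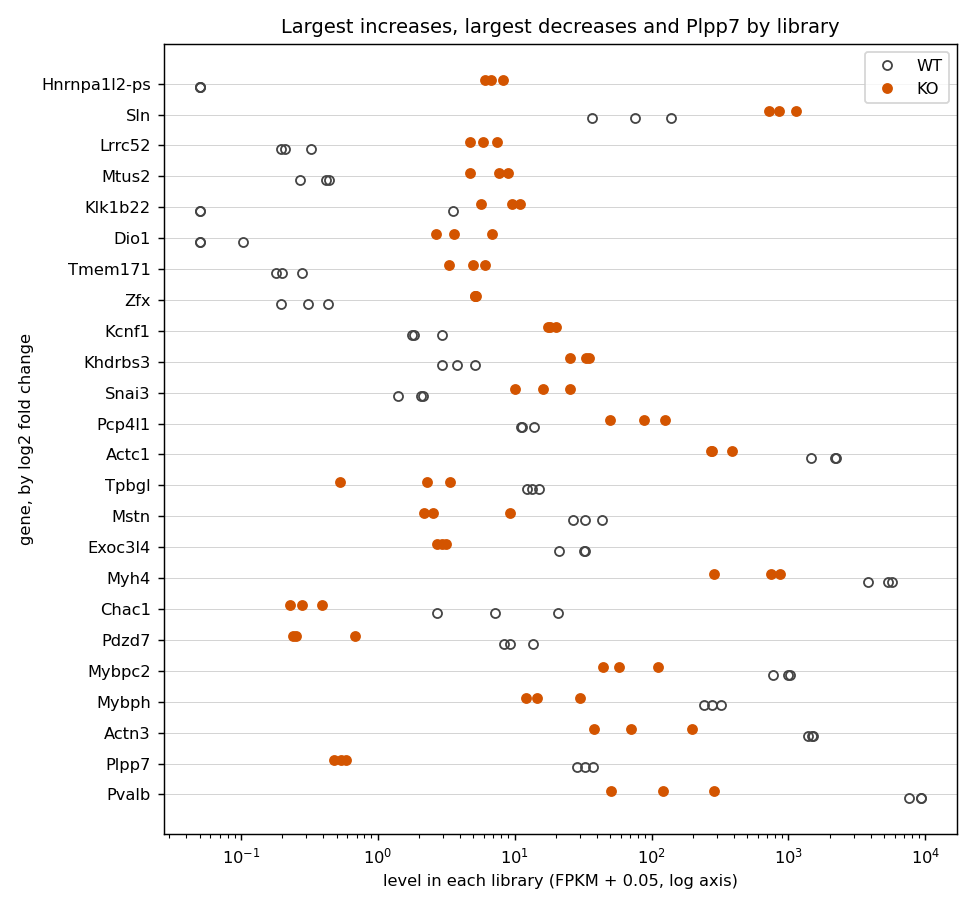
Level of Plpp7 and of the 12 largest named increases and decreases in each library. Open circles are WT and filled circles are KO, on a log axis with a small constant added so that 0 can be shown.

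In this view the KO circles ran wider than the WT circles in Pvalb and Actn3, while in Chac1 the WT circles ran wider. Among the increasing genes the WT circles were the more scattered in Klk1b22 and Sln.

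The fast contractile genes were read as a list of 18 sarcomere and calcium handling genes of adult fast fibers. All 18 were tested, all had negative log2 fold changes, and 8 were called lower and 0 higher (1.04 and 2.31 percent of all genes). The median change was -0.96 against 0.16 over all genes tested, and it stayed negative after each scaling, at -1.15 with median centring, -0.78 with quantile normalization and -0.82 with coding genes rescaled. The list summed to 95046, 101910.0 and 88584 FPKM in WT and 54178, 48297 and 44148 in KO, with Mylpf, the fast regulatory light chain, as its most abundant gene. Mylpf itself measured 20362, 24962 and 17790.3 FPKM in WT and 11709, 11570.5 and 9837 in KO, short of a call (log2 fold change -0.92, adjusted p 0.017).

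Of the other thin and thick filament genes, Tpm1, alpha-tropomyosin, measured 8297, 7925 and 8611 FPKM in WT and 3410.4, 3072 and 2437 in KO and fell (log2 fold change -1.49, adjusted p 0.0028). Myl1, the fast essential light chain, measured 15617, 18282 and 15918 FPKM in WT and 10364, 8398 and 6595 in KO and missed the fold threshold narrowly (log2 fold change -0.99, adjusted p 0.02). Tnnt3, fast troponin T, measured 10411, 10578 and 9980.1 FPKM in WT and 7867, 7335 and 7009 in KO and passed on adjusted p alone (log2 fold change -0.48, adjusted p 0.037). The decreases were thus graded, deep for Actn3 and Mybpc2 and shallow for troponin T and actin. Myoz1, a Z disc protein that binds calcineurin, measured 1146, 1334 and 1039 FPKM in WT and 658, 531 and 511 in KO (log2 fold change -1.05, adjusted p 0.0082), with no call without WT library 2 (-0.95, adjusted p 0.022) or KO library 3 (-0.98, adjusted p 0.035). Mylk2, the kinase of the fast light chain, measured 87.4, 73.6 and 150.1 FPKM in WT and 38.7, 31.5 and 36.0 in KO (log2 fold change -1.47, adjusted p 0.016), with no call without WT library 1 (-1.56, adjusted p 0.05), KO library 2 (-1.39, adjusted p 0.054) or KO library 3 (-1.49, adjusted p 0.051).

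The myosin heavy chain genes of the cluster on chromosome 11 moved in different directions. Myh4, the fastest adult isoform, measured 5682, 3827 and 5341 FPKM in WT and 868, 284 and 748 in KO. Its KO values lay well below WT, lowest in KO library 2, and it fell (log2 fold change -3.10, SE 0.42, adjusted p 0.007). Myh8, the neonatal isoform, measured 436, 431 and 568 FPKM in WT and 1735, 1451 and 1197 in KO and rose (log2 fold change 1.61, SE 0.18, adjusted p 0.0038). Myh3, the embryonic isoform, measured 5.93, 14.7 and 18.3 FPKM in WT and 40.0, 98.7 and 80.0 in KO and rose as well (log2 fold change 2.49, SE 0.47, adjusted p 0.021). Both sets of KO values were above all WT values, but the Myh3 call ended without KO library 2 (2.22, adjusted p 0.064) or KO library 3 (2.37, adjusted p 0.069).

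The other adult fast isoforms of the cluster moved less. Myh2 measured 265, 327 and 439 FPKM in WT and 447, 617 and 714 in KO (log2 fold change 0.79, adjusted p 0.071). Myh1 measured 908, 886 and 1346 FPKM in WT and 735, 727 and 818 in KO (log2 fold change -0.44, adjusted p 0.15). Neither was called, although the groups did not overlap in either gene. In WT the order by mean FPKM was Myh4, Myh1, Myh8, Myh2 and Myh3, with the ranges of Myh8 and Myh2 touching. In KO Myh8 stood first, followed by Myh1, Myh4 and Myh2, and the Myh4 values spanned those of Myh1 and Myh2. Summed over 6 myosin heavy chain genes the level was 7332, 5557 and 7823 FPKM in WT and 3849.9, 3269 and 3672 in KO, so the gain of Myh8 did not match the loss of Myh4 in FPKM.

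The promoters of these myosin genes and of the myosin-binding protein genes are shown because the genes moved together or apart within shared families. They are RefSeq sequences on GRCm38.p6, 300 bases long and placed around the start of a RefSeq transcript, 5′ to 3′ on the strand of the gene, with the promoter nearest the annotated gene start where a gene had several. For Myh4 that start lies 217 bases before the GENCODE start of the gene, so its sequence ends upstream of the latter. Capitals mark CANNTG, the E-box that myogenic factors bind, and TATAAA, searched on both strands. No marked motif overlapped another of a different kind, and 2 other motifs were searched and are in none of the 5, CTANNNNTAG, a core of MEF2-type sites, and AGGNCANAGGNCA, a direct repeat that PPAR-type nuclear receptors bind. Locations are chr11:67078050-67078349 (+ strand), chr11:67276874-67277173 (+ strand), chr11:67237562-67237861 (+ strand), chr1:134193198-134193497 (+ strand) and chr7:44524620-44524919 (- strand).
Myh3: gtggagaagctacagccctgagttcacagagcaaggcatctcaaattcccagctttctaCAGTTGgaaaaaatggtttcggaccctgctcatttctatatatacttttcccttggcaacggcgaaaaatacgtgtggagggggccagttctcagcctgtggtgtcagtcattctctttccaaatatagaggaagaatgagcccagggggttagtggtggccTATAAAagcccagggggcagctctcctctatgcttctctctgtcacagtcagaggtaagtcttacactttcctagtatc
Myh8: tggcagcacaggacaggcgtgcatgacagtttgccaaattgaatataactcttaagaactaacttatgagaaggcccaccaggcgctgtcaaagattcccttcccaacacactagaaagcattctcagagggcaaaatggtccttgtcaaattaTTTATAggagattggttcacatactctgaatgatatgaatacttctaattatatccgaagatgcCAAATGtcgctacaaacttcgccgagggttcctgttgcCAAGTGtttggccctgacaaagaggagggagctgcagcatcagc
Myh4: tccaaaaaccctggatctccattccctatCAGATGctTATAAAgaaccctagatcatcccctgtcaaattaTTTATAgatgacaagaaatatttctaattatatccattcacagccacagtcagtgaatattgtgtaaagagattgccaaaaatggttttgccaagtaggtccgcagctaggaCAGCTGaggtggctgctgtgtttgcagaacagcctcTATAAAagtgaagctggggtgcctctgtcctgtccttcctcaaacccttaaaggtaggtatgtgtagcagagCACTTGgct
Mybph: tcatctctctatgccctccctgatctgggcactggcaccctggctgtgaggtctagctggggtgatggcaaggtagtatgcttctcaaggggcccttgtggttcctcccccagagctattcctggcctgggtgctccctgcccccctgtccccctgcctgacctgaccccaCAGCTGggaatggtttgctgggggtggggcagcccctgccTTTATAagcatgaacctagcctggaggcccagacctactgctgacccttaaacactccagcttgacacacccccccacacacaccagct
Mybpc2: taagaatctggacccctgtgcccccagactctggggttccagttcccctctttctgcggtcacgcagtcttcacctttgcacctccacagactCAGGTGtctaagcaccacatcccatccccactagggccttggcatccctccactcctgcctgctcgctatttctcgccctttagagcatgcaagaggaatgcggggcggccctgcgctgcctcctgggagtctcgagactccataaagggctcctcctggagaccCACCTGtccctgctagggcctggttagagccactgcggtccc

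Myh3 held 1 CANNTG and 1 TATAAA, Myh8 held 2 and 1, Myh4 held 3 and 3, Mybph held 1 and 1, and Mybpc2 held 2 and 0. Promoters in the table matched 8858 of 13783 tested genes with a genome position. CANNTG occurred in 5509 of these (62.2 percent), TATAAA in 615 (6.94 percent), CTANNNNTAG in 270 (3.05 percent) and AGGNCANAGGNCA in 19 (0.214 percent). In the same order the shares were 67, 13.2, 5.08 and 0 percent among 197 matched genes called higher, and 71, 11.8, 6.45 and 0 percent among 93 called lower. The myosin genes that rose and the one that fell all held both motifs.

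Embryonic and cardiac isoforms did not move as a block. Of 18 tested genes 3 were called higher and 2 lower, with a median of 0.37, which stayed positive under each scaling but became negative without WT library 1. Myl4, the embryonic light chain, measured 39.0, 64.3 and 48.9 FPKM in WT and 119, 122 and 105 in KO and rose (log2 fold change 1.21, adjusted p 0.01). Myoz2, the slow and cardiac relative of Myoz1, measured 104, 157 and 177 FPKM in WT and 309, 508 and 429 in KO (log2 fold change 1.51, adjusted p 0.014), and its call ended without KO library 3 (1.47, adjusted p 0.05). Tnnt2, cardiac troponin T, measured 15, 16.2 and 20.3 FPKM in WT and 29.8, 29.2 and 26.7 in KO and passed on adjusted p alone (log2 fold change 0.73, adjusted p 0.018). The rises in this list stood beside the falls of Actc1 and Mybph, which are also genes of immature muscle.

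Among the genes of slow fibers, Myl2 and Tnnc1 differed widely between libraries of a genotype. Myl2, the slow regulatory light chain, measured 75.3, 517 and 637 FPKM in WT and 75.4, 807 and 749.6 in KO. Tnnc1, slow troponin C, measured 42.9, 266 and 201 FPKM in WT and 36.3, 214 and 183 in KO. Library 1 was low in both genotypes, and the genotypes overlapped fully (log2 fold change 0.29, adjusted p 0.89 for Myl2 and -0.23, adjusted p 0.89 for Tnnc1). With 1 library left out at a time the values ran from -0.68 to 1.41 for Myl2 and from -1.03 to 0.58 for Tnnc1. Under a rule of more than 2-fold below the other 2 libraries of the genotype, 14 genes were low in library 1 of both genotypes, against 1 gene for library 2 and 6 for library 3. The 14 included Myl2, Myl3, Tnnc1, Tnnt1, Tpm3, Myl6b, Myh6, Myh7 and the antisense transcript Mhrt. The libraries are numbered by column order. The mouse names of the 2 libraries numbered 1 share their leading letters and have adjacent numbers, as do those of the 2 libraries numbered 2, and whether these mice were littermates is not given.

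**Figure D3:**
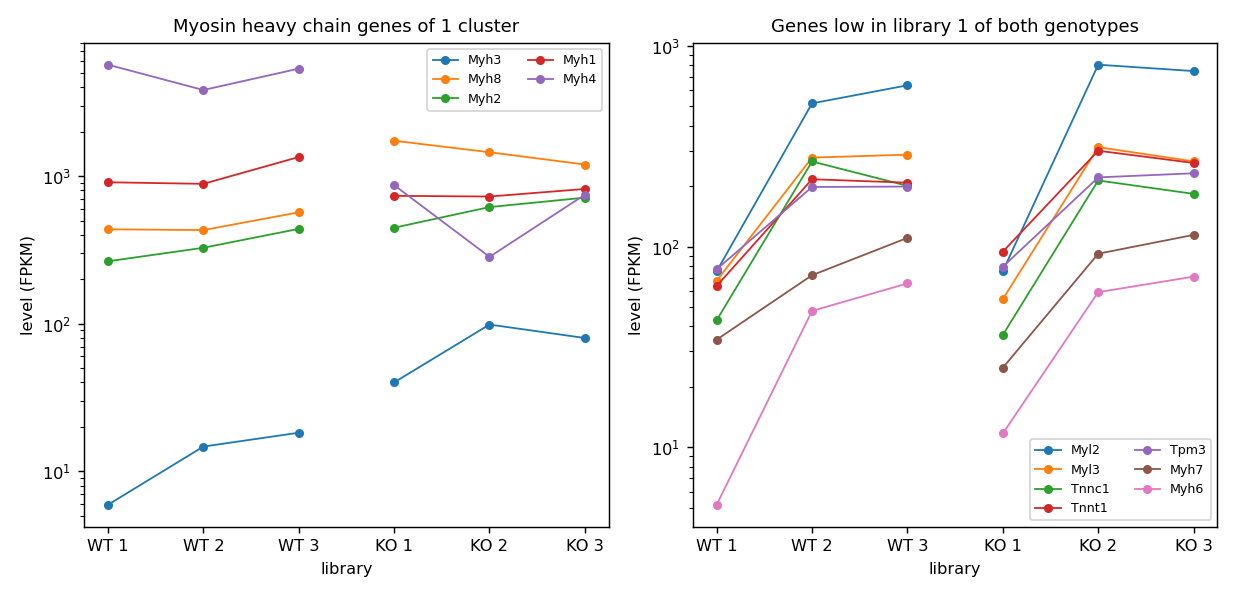
Left, levels of 5 myosin heavy chain genes of the chromosome 11 cluster in each library. Right, levels of 7 genes that were low in library 1 of both genotypes.

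The left panel shows the change of order between Myh4 and Myh8, and the right panel the drop in library 1 on both sides. With those 2 libraries left out, an alternative added after the values were seen, 245 genes were called, 170 higher and 75 lower, of which 223 were called in the main fit. Of the 112 named calls 39 were lost in that fit, among them Myh8, Myl4, Fabp3, Hadha, Ech1, Dlk1, Phka1 and Xirp2. The log2 fold changes of these genes there were 1.41, 1.01, 1.44, 1.33, 1.74, 1.17, -1.07 and -1.08, so their calls ended on the adjusted p. Other lost calls, such as Casq2 (0.86) and H19 (0.88), also fell under the fold threshold.

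Calcium handling beyond the fast list gave 5 genes called higher and 1 lower of 11 tested (3 and 2 after median centring), with a median of 0.54. Atp2a2 and Casq2, described next, were not called after centring. Atp2a2, the slow calcium pump, measured 38, 66.6 and 82.0 FPKM in WT and 113, 244 and 218 in KO (log2 fold change 1.61, adjusted p 0.035). Its WT and KO ranges stood apart but the call ended without WT library 1 (1.29, adjusted p 0.098), WT library 2 (1.69, adjusted p 0.075), KO library 2 (1.40, adjusted p 0.098) or KO library 3 (1.48, adjusted p 0.1). Casq2, the slow and cardiac calsequestrin, measured 64.9, 80.3 and 81.8 FPKM in WT and 169, 138 and 158 in KO (log2 fold change 1.03, adjusted p 0.0062), with a call that ended without WT library 1 (0.93, adjusted p 0.027) or KO library 1 (0.97, adjusted p 0.024). Rcan1, an inhibitor of calcineurin that calcineurin also induces, measured 24.5, 29.3 and 35.9 FPKM in WT and 81.5, 119 and 94.9 in KO and kept its call in each fit (log2 fold change 1.70, adjusted p 0.0037).

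The fast counterparts, and Camk2a, went the other way. Casq1, the fast calsequestrin, measured 3117, 2753 and 2598 FPKM in WT and 1196, 1101 and 1045 in KO and fell (log2 fold change -1.34, adjusted p 0.002). Atp2a1, the fast calcium pump, measured 5531, 4926 and 5397 FPKM in WT and 3399, 2495 and 2874 in KO and passed on adjusted p alone (log2 fold change -0.86, adjusted p 0.014). Cacng1, a subunit of the skeletal calcium channel, measured 347, 318 and 341 FPKM in WT and 187, 134 and 133 in KO and fell (log2 fold change -1.17, adjusted p 0.0064). Camk2a, a calcium-dependent kinase, measured 50.7, 34.8 and 50.4 FPKM in WT and 22.5, 13.5 and 16.2 in KO (log2 fold change -1.36, adjusted p 0.013), and its call ended without WT library 1 (-1.27, adjusted p 0.056). None of these genes had overlapping groups.

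Glycolysis genes were mostly lower. Of 18 tested 7 were called lower and 1 higher, and the median was -0.74, or between -0.93 and -0.61 under the other scalings. Their sum was 14226, 14042 and 12900.1 FPKM in WT and 8378, 6711 and 7564 in KO, with Aldoa, muscle aldolase, the most abundant at 2639, 2865 and 3128 FPKM in WT and 2096, 1393 and 1895 in KO (log2 fold change -0.70, adjusted p 0.044). Eno3, muscle enolase, measured 2643, 2499.6 and 2367 FPKM in WT and 1093, 711 and 918 in KO and fell (log2 fold change -1.48, adjusted p 0.004). Pgk1, phosphoglycerate kinase, measured 594, 549 and 496 FPKM in WT and 245, 205 and 214 in KO and fell (log2 fold change -1.30, adjusted p 0.0021). The KO values of both lay far below WT, with KO library 2 lowest.

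Within that list Gpd1, which links glycolysis to glycerol phosphate, measured 291, 200.4 and 188 FPKM in WT and 82.4, 32.8 and 43.0 in KO (log2 fold change -2.18, adjusted p 0.011). Slc16a3, the exporter of lactate, measured 75.8, 64.0 and 66.1 FPKM in WT and 27.3, 15.4 and 15.7 in KO (log2 fold change -1.84, adjusted p 0.005). Both were lower in each KO library. Pfkfb3, which makes the activator of phosphofructokinase, measured 12.6, 5.39 and 7.88 FPKM in WT and 0.745, 2.13 and 1.83 in KO (log2 fold change -2.13, adjusted p 0.016), with no call without WT library 1 (-1.83, adjusted p 0.051). The Pfkfb3 call also ended with libraries of the same number treated as a replicate block. Pgam2, muscle phosphoglycerate mutase, measured 2475, 2502 and 1761 FPKM in WT and 1157, 1038 and 930.4 in KO (log2 fold change -1.09, adjusted p 0.011), with no call without WT library 1 (-1.02, adjusted p 0.053). Groups did not overlap in either of these. Tpi1, triosephosphate isomerase, measured 1178, 1191 and 920.4 FPKM in WT and 640.0, 458 and 497 in KO (log2 fold change -1.05, adjusted p 0.012), with no call without WT library 1 (-0.99, adjusted p 0.057), WT library 2 (-0.98, adjusted p 0.039) or KO library 2 (-0.95, adjusted p 0.044). Ldhb, the lactate dehydrogenase subunit of oxidative tissue, was the only gene of the list called higher, at 59.7, 124 and 81.3 FPKM in WT and 221, 388 and 318 in KO, and rose (log2 fold change 1.83, adjusted p 0.013).

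Glycogen metabolism gave 4 genes called lower and 0 higher of 16, with a median of -0.10 that turned to 0.04 when coding genes were rescaled, so the list as a whole had no firm direction. The called genes included the subunits of phosphorylase kinase. Phkg1, the catalytic subunit, measured 181, 178 and 167 FPKM in WT and 60.1, 44.1 and 56.5 in KO (log2 fold change -1.71, adjusted p 0.0013). Phka1, the muscle alpha subunit, measured 18.5, 15.2 and 18.4 FPKM in WT and 7.71, 8.58 and 6.93 in KO (log2 fold change -1.11, adjusted p 0.004). Both fell without overlap and kept their calls with each library left out in turn. Phkb, the beta subunit, measured 38, 27.3 and 32.2 FPKM in WT and 17.9, 12.3 and 15.9 in KO (log2 fold change -1.06, adjusted p 0.013), and its call ended without WT library 1 (-0.94, adjusted p 0.052) or KO library 2 (-0.92, adjusted p 0.038). Pygm, the phosphorylase that this kinase activates, was the most abundant gene of the list at 1389, 1219 and 1281 FPKM in WT and 847, 665 and 738 in KO and passed on adjusted p alone (log2 fold change -0.79, adjusted p 0.012). Ckm, muscle creatine kinase, which buffers ATP, measured 7190.4, 7978 and 6773 FPKM in WT and 2701, 2209 and 2563 in KO and fell (log2 fold change -1.56, adjusted p 0.0016).

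Of 27 genes of fatty acid uptake and oxidation 13 were called higher and 0 lower (8 and 1 after median centring), 22 passed on adjusted p alone in the upward direction, and the median was 0.93, or between 0.74 and 1.07 under the other scalings. The list summed to 3277, 3869.8 and 3379 FPKM in WT and 6589, 8495 and 8255 in KO. Fabp3, the fatty acid binding protein of heart and oxidative muscle, was the most abundant at 616, 878 and 594 FPKM in WT and 1437, 1969.6 and 1957 in KO and rose (log2 fold change 1.37, adjusted p 0.0091). Lpl, which frees fatty acids from lipoproteins, measured 96.1, 122 and 107 FPKM in WT and 337, 341 and 330.1 in KO, with KO values close together (log2 fold change 1.63, adjusted p 0.0011). Cd36, the fatty acid transporter, measured 141, 158 and 152 FPKM in WT and 278, 371 and 326 in KO (log2 fold change 1.10, adjusted p 0.0046). Its change without KO library 2 (1.0, adjusted p 0.017) sat at the fold threshold and was not called.

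The list also holds enzymes of the pathway. Hadha, the trifunctional protein subunit, measured 177, 146 and 196 FPKM in WT and 361, 409.7 and 441 in KO (log2 fold change 1.23, adjusted p 0.0042). Acadm, medium-chain acyl-CoA dehydrogenase, measured 137, 154 and 141 FPKM in WT and 303, 387 and 369.6 in KO (log2 fold change 1.28, adjusted p 0.0025). Both rose in each KO library. Ech1, an auxiliary enzyme for unsaturated fatty acids, measured 262, 367 and 243 FPKM in WT and 732, 1177 and 851 in KO (log2 fold change 1.65, adjusted p 0.0073). Acot1, an acyl-CoA thioesterase, measured 2.19, 3.48 and 2.32 FPKM in WT and 11.5, 16.9 and 12.7 in KO (log2 fold change 2.17, adjusted p 0.0022). Acss1, named from outside the lists, makes acetyl-CoA from acetate in mitochondria and measured 19.4, 21.6 and 24.2 FPKM in WT and 88.4, 93.8 and 107 in KO (log2 fold change 2.13, adjusted p 8.2e-04). Ech1, Acot1 and Acss1 kept their calls with each library left out in turn. Cpt1b, the muscle carnitine palmitoyltransferase, measured 102, 44.9 and 47.0 FPKM in WT and 113, 172 and 196 in KO, with KO library 1 close to WT library 1 (log2 fold change 1.37, adjusted p 0.048). Its call ended without WT library 2 (1.16, adjusted p 0.12), WT library 3 (1.20, adjusted p 0.11), KO library 1 (1.6, adjusted p 0.058), KO library 2 (1.30, adjusted p 0.12) or KO library 3 (1.21, adjusted p 0.13).

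Against that background 2 measures of mitochondria did not follow. Ucp3, the muscle uncoupling protein, measured 68.9, 72.3 and 75.9 FPKM in WT and 42.9, 45.6 and 34.8 in KO and was lower on adjusted p alone (log2 fold change -0.82, adjusted p 0.011). Of 22 nuclear genes of oxidative phosphorylation 0 were called with limma, 2 had an unadjusted p under 0.05 (4337 of 13789 over all genes) and 1 an adjusted p under 0.05, with a median of 0.10 that became -0.09 after median centring. These genes summed to 12314, 14809.9 and 11284 FPKM in WT and 13115, 14627 and 14189 in KO, and the ranges overlapped. Nnt, the transhydrogenase of the inner mitochondrial membrane whose gene carries a deletion in 1 common C57BL/6 substrain, has 2 entries in the table. The more abundant entry, under a clone name in the table and now also named Nnt, measured 45.2, 49.5 and 56.5 FPKM in WT and 119.6, 168 and 177 in KO and rose (log2 fold change 1.59, adjusted p 0.0035). The entry listed as Nnt measured 0.851, 1.03 and 1.37 FPKM in WT and 1.90, 3.50 and 2.70 in KO and was not called (log2 fold change 1.0, adjusted p 0.032).

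Some fatty acid genes are also made by fat cells, so the adipocyte markers are given beside them. Of 12 genes 10 were tested and 4 called higher (2 after median centring), with a median of 1.21. Their sum was 621, 923 and 885 FPKM in WT and 2655, 3004 and 2199.6 in KO. The most abundant was Car3, carbonic anhydrase 3, which slow muscle makes as well, at 312, 567 and 570.0 FPKM in WT and 2022, 2338 and 1606 in KO (log2 fold change 2.08, adjusted p 0.0059). Cidea, a lipid droplet protein, measured 2.28, 2.65 and 2.48 FPKM in WT and 11.3, 13.8 and 8.13 in KO (log2 fold change 1.93, adjusted p 0.0025). Both were higher in each KO library. Cfd, the adipocyte-secreted adipsin, measured 9.08, 12.3 and 5.27 FPKM in WT and 58.7, 17.8 and 27.3 in KO, highest in KO library 1 (log2 fold change 1.81, adjusted p 0.048). Its call ended without WT library 1 (1.86, adjusted p 0.12), WT library 2 (2.07, adjusted p 0.065), WT library 3 (1.49, adjusted p 0.1), KO library 1 (1.34, adjusted p 0.085) or KO library 3 (1.89, adjusted p 0.1). No marker of this list was at 0 in all 6 libraries, and the part of fat cells in the fatty acid changes was not tested.

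Growth factor and insulin signaling genes gave 0 called higher and 1 lower of 23, the lower one being Mstn, with 9 higher on adjusted p alone and a median of 0.50. Igf2, a fetal growth factor, measured 389, 118 and 135 FPKM in WT and 474, 897 and 343 in KO. WT library 1 lay above KO library 3, so the groups overlapped and the gene was not called (log2 fold change 1.52, adjusted p 0.1). Fst, follistatin, which binds and blocks myostatin, measured 7.16, 7.91 and 6.61 FPKM in WT and 11.3, 13.6 and 11.4 in KO and was higher on adjusted p alone (log2 fold change 0.70, adjusted p 0.014).

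Imprinted genes gave 5 called higher and 0 lower of 21 (3 and 0 after median centring), with a median of 0.27 that stayed positive after each scaling. H19, the maternally expressed noncoding transcript beside Igf2, was the most abundant at 2272, 2739 and 3181 FPKM in WT and 5529, 5153 and 5753 in KO (log2 fold change 1.02, adjusted p 0.0092). Its call ended without WT library 1 (0.89, adjusted p 0.043) or KO library 3 (0.98, adjusted p 0.043), where the change dropped under the fold threshold. The H19 call also ended after median centring. Dlk1, a paternally expressed Notch-like protein of immature muscle, measured 227, 255 and 246 FPKM in WT and 755, 616 and 515 in KO (log2 fold change 1.36, adjusted p 0.004). Peg10, a paternally expressed gene of retroviral origin, measured 3.13, 3.31 and 2.94 FPKM in WT and 8.16, 9.06 and 8.13 in KO (log2 fold change 1.30, adjusted p 0.0013). KO values of both were all above WT. Snrpn, a paternally expressed splicing protein gene, measured 9.74, 8.31 and 8.57 FPKM in WT and 16.7, 20.7 and 22 in KO (log2 fold change 1.11, adjusted p 0.0047), with no call after median centring. Rlt1, now named Rtl1 and also paternal, measured 4.28, 11.6 and 8.30 FPKM in WT and 32.4, 27.5 and 21.1 in KO (log2 fold change 1.76, adjusted p 0.021), with no call without KO library 1 (1.62, adjusted p 0.064) or KO library 2 (1.74, adjusted p 0.064).

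Around these genes the neighbors did not all move. Nctc1, a muscle noncoding transcript downstream of H19 on chromosome 7, measured 28.2, 27.2 and 26.7 FPKM in WT and 6.28, 8.74 and 7.52 in KO and fell (log2 fold change -1.81, adjusted p 0.0012). H19 and Nctc1 thus went opposite ways. Meg3, the maternal transcript beside Dlk1 on chromosome 12, measured 1509.7, 1709 and 2226 FPKM in WT and 1868, 1709 and 1780.5 in KO (log2 fold change 0.00, adjusted p 0.99). Rian, another maternal transcript of that region, measured 1270.0, 1427 and 1675 FPKM in WT and 1459.7, 1139.8 and 1223 in KO (log2 fold change -0.19, adjusted p 0.43). Both maternal transcripts had overlapping groups while Dlk1 and Rlt1 rose.

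Atrophy and stress lists stayed near the overall median. Of 18 atrophy and proteasome genes 2 were called higher (1 after median centring), with a median of 0.32. Klf15, a glucocorticoid-induced factor, measured 3.24, 3.59 and 5.84 FPKM in WT and 9.14, 9.26 and 12.6 in KO (log2 fold change 1.22, adjusted p 0.019), with no call without WT library 1 (1.08, adjusted p 0.069), WT library 2 (1.14, adjusted p 0.058) or KO library 3 (1.08, adjusted p 0.061). Gabarapl1, an autophagy protein, measured 11.3, 13.8 and 15.6 FPKM in WT and 27.2, 24.7 and 31.0 in KO (log2 fold change 1.0, adjusted p 0.0091), with no call without WT library 1 (0.88, adjusted p 0.035) or KO library 3 (0.92, adjusted p 0.035). The 2 ubiquitin ligases that mark atrophy were not called. Fbxo32 measured 3.69, 3.30 and 11.7 FPKM in WT and 16.5, 10.9 and 18.5 in KO (log2 fold change 1.42, adjusted p 0.082), and Trim63 measured 42.1, 30.2 and 63.9 FPKM in WT and 30.3, 26.2 and 39.4 in KO (log2 fold change -0.45, adjusted p 0.32). Groups overlapped in both, with WT library 3 highest of the WT group.

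The integrated stress response gave 0 called higher and 1 lower of 18, the lower one being Chac1, and the median of 0.21 dropped to 0.02 after centring. Atf4, its transcription factor, was the most abundant at 90.9, 96.5 and 93.4 FPKM in WT and 79.0, 78.5 and 90.8 in KO (log2 fold change -0.18, adjusted p 0.27). Of 16 p53 targets 0 were called with limma and 4 had an unadjusted p under 0.05 (4337 of 13789 over all genes), with 3 higher and 1 lower on adjusted p alone. Cdkn1a, the p21 cell cycle inhibitor, measured 21.4, 27.3 and 24.8 FPKM in WT and 44.4, 43.8 and 33.5 in KO and was among the 3 (log2 fold change 0.71, adjusted p 0.027). Ccng1, cyclin G1, was lower on adjusted p alone at 222, 181 and 174 FPKM in WT and 109.7, 93.5 and 119 in KO (log2 fold change -0.84, adjusted p 0.014). The p53 targets therefore did not share a direction. In the heat shock and proteostasis list 1 of 18 was called, Hspa5, the chaperone of the endoplasmic reticulum, at 92.5, 67.3 and 93.7 FPKM in WT and 182, 192 and 189 in KO (log2 fold change 1.16, adjusted p 0.0057), with no call after median centring. Hsp90b1, a second chaperone of that compartment, measured 63.2, 58.8 and 60.7 FPKM in WT and 107, 96.5 and 99.8 in KO and was higher on adjusted p alone (log2 fold change 0.72, adjusted p 0.0059).

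Hypertrophy and stretch genes gave 3 called higher and 2 lower of 21, with a median of 0.41, and 0 higher and 2 lower after median centring. Ankrd2, a stretch-induced protein of slow muscle, measured 33.1, 45.0 and 64.9 FPKM in WT and 102, 368 and 216 in KO, highest in KO library 2 (log2 fold change 2.12, adjusted p 0.031). Its call ended without WT library 1 (1.88, adjusted p 0.11), WT library 2 (2.1, adjusted p 0.08), KO library 2 (1.68, adjusted p 0.065) or KO library 3 (2.07, adjusted p 0.089). Igfn1, a large Z disc protein, measured 4.09, 2.48 and 7.58 FPKM in WT and 0.633, 0.602 and 0.842 in KO (log2 fold change -2.02, adjusted p 0.014), with no call without WT library 1 (-2.05, adjusted p 0.055). Xirp2, an actin-binding protein of the same region, measured 45.4, 44.8 and 48.6 FPKM in WT and 14.9, 24.7 and 19.3 in KO and fell in each fit with a library left out (log2 fold change -1.24, adjusted p 0.0086). In the polyamine and muscle growth list 1 of 16 was called, Ampd3, an AMP deaminase, at 2.71, 3.84 and 3.29 FPKM in WT and 6.54, 8.69 and 10.9 in KO (log2 fold change 1.27, adjusted p 0.011). Bhlhe41, a repressor of the clock and the single clock gene called of 16, measured 5.32, 4.10 and 4.71 FPKM in WT and 1.84, 1.95 and 2.24 in KO (log2 fold change -1.05, adjusted p 0.0057), with no call without WT library 1 (-0.97, adjusted p 0.03).

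In the denervation list 1 of 14 genes was called, Chrnd, the delta subunit of the acetylcholine receptor, at 5.48, 5.81 and 5.28 FPKM in WT and 23.8, 20.5 and 21.6 in KO. Its values were tight in each genotype and it rose (log2 fold change 1.90, SE 0.10, adjusted p 7.2e-04). Chrng, the fetal gamma subunit, measured 3.21, 3.36 and 3.21 FPKM in WT and 7.11, 6.14 and 5.99 in KO and was higher on adjusted p alone (log2 fold change 0.88, adjusted p 0.005). Chrne, the adult epsilon subunit that replaces gamma, measured 34.9, 33.1 and 30.5 FPKM in WT and 46.1, 45.7 and 48.3 in KO and was higher as well on that measure (log2 fold change 0.50, adjusted p 0.02). The adult and fetal subunits therefore went the same way.

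Myogenic regulators and satellite cell genes gave 1 called higher of 20 (0 after median centring), with a median of 0.12 that became -0.07 after centring. The called gene was Sdc4, a syndecan of satellite cells, at 15.9, 19.7 and 17.0 FPKM in WT and 39.3, 36.3 and 34.5 in KO (log2 fold change 1.05, adjusted p 0.0036), with no call without WT library 1 (0.98, adjusted p 0.021) or KO library 1 (1.0, adjusted p 0.015). Of 29 cell cycle genes 2 were called higher (1 after median centring) and the median was -0.16. Ccnd2, cyclin D2, measured 7.21, 8.12 and 7.06 FPKM in WT and 18.5, 16.8 and 18.2 in KO and rose in every fit with a library left out (log2 fold change 1.20, adjusted p 0.0016). Ccnd3, cyclin D3, measured 35.3, 33.7 and 36.3 FPKM in WT and 83.7, 52.6 and 83.0 in KO (log2 fold change 1.02, adjusted p 0.019), with no call without WT library 1 (1.02, adjusted p 0.069), WT library 2 (0.99, adjusted p 0.055), KO library 1 (0.90, adjusted p 0.057) or KO library 3 (0.91, adjusted p 0.063). Of the 29 genes 17 had a negative change.

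In the list of nuclear envelope genes, members other than Plpp7 changed little. The list does not cover every gene of the envelope, and called genes outside it are not counted here. Of 21 tested only Plpp7 was called, 3 were higher on adjusted p alone, and the median was 0.17 against 0.16 over all genes. Lmna, which encodes lamin A and C, measured 65.4, 69.9 and 76.4 FPKM in WT and 121, 116 and 129 in KO. It was higher in each KO library (log2 fold change 0.79, adjusted p 0.0063), short of the fold threshold. Extracellular matrix genes gave 0 calls of 22 with limma, 5 with an unadjusted p under 0.05 (4337 of 13789 over all genes) and 1 on adjusted p alone, with a median of 0.10. Interferon response genes gave 0 calls of 13 with limma, 4 with an unadjusted p under 0.05 and 1 on adjusted p alone, B2m, the light chain of MHC class I, at 112, 118 and 98.7 FPKM in WT and 158, 213 and 157 in KO (log2 fold change 0.67, adjusted p 0.034).

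**Figure D4:**
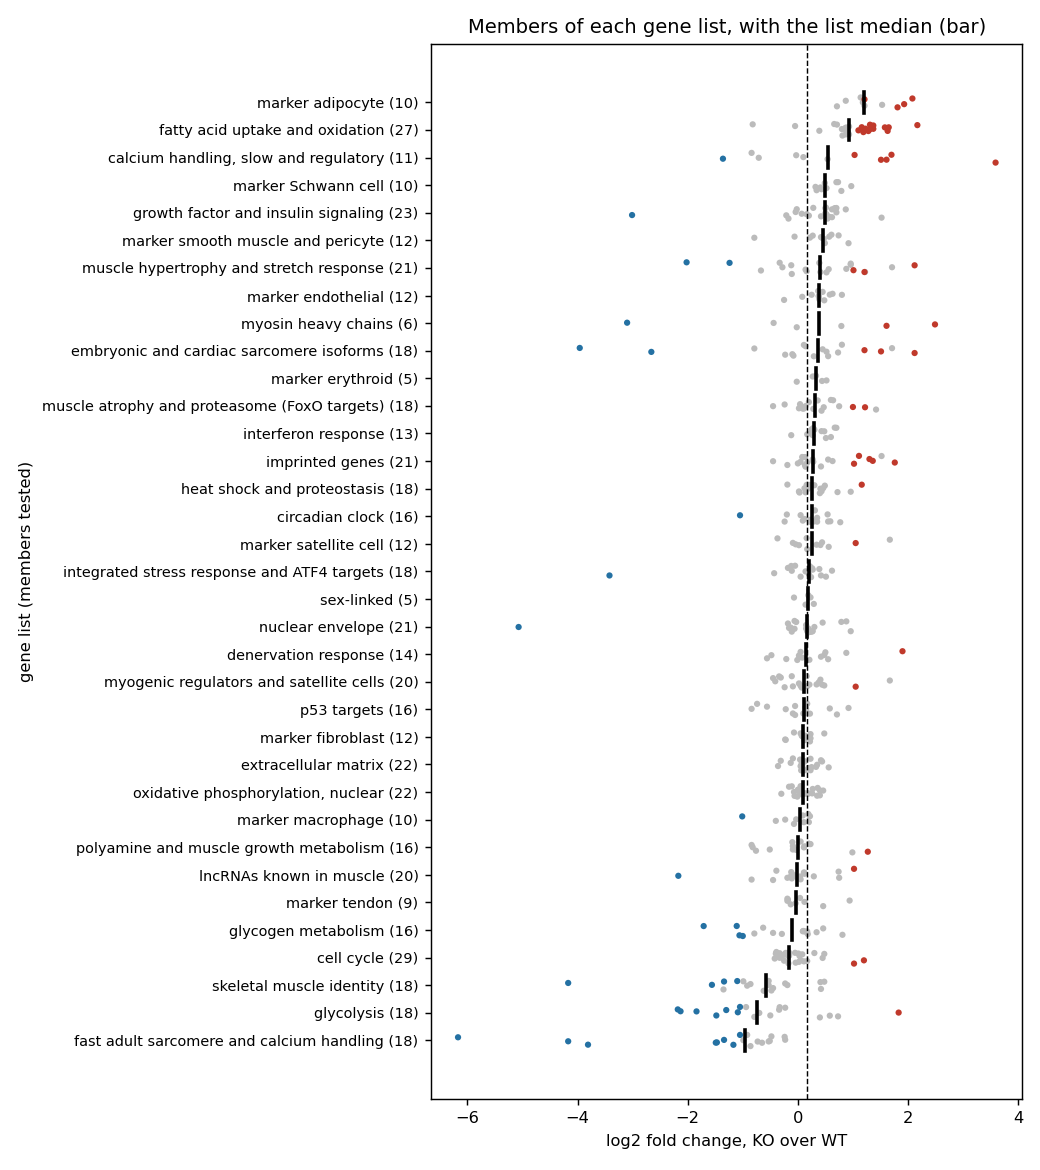
Log2 fold change of each tested member of the gene lists, with the list median as a bar. The dashed line is the median of all genes tested, and red and blue mark called genes.

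Ordered by median, the lists ran from the fast sarcomere, glycolysis and muscle identity genes at the low end to the slow calcium handling, fatty acid and adipocyte genes at the high end. Most lists between these lay close to the overall median. Single called genes at a distance from their list were Plpp7, Chac1, Mstn and Ldhb. After median centring 9 of 35 list medians changed sign, all of them small, among them oxidative phosphorylation, p53 targets, denervation, myogenic regulators and nuclear envelope.

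Markers of other cell types were read as values, beside 4337 of 13789 genes overall with an unadjusted p under 0.05. Fibroblast markers gave 0 calls of 12 with limma and 1 with an unadjusted p under 0.05, with a sum of 2384, 2475 and 2634 FPKM in WT and 2984, 2297 and 3019 in KO and Col3a1 the most abundant. Endothelial markers gave 0 calls of 12 with limma, 8 with an unadjusted p under 0.05 and 5 higher on adjusted p alone, with a sum of 391, 417 and 432 FPKM in WT and 451, 546 and 592 in KO and Egfl7 on top. Flt1, a receptor of vascular endothelial growth factor, measured 5.03, 5.47 and 5.95 FPKM in WT and 8.47, 8.91 and 8.82 in KO (log2 fold change 0.63, adjusted p 0.012). Endothelial KO sums were all above WT, while fibroblast sums overlapped. Schwann cell markers gave 0 calls of 10 with limma, 6 with an unadjusted p under 0.05 and 3 higher on adjusted p alone, with a sum of 283, 289 and 284 FPKM in WT and 409.9, 545 and 418 in KO and Pmp22 on top. Sox10, their lineage factor, measured 3.79, 3.80 and 4.17 FPKM in WT and 7.12, 6.64 and 6.77 in KO, higher in KO without overlap (log2 fold change 0.73, adjusted p 0.0064).

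Smooth muscle and pericyte markers gave 0 calls of 12 with limma and 8 with an unadjusted p under 0.05, with 5 higher and 1 lower on adjusted p alone, and summed to 543, 537 and 550.0 FPKM in WT and 488, 516 and 454 in KO. The lower one was the most abundant, Acta2, smooth muscle actin, at 331, 325 and 321 FPKM in WT and 205, 198 and 163 in KO (log2 fold change -0.79, adjusted p 0.009). Tendon markers gave 0 calls of 9 with limma and 1 with an unadjusted p under 0.05, with a sum of 199, 250.1 and 223 FPKM in WT and 233, 148 and 326 in KO and Fmod the most abundant. Satellite cell markers gave 1 of 12, Sdc4 again, with a sum of 991, 1135 and 1168 FPKM in WT and 1363, 1636 and 1411 in KO. Des, the most abundant of them, is also in the muscle identity list, so this sum does not stand for satellite cells alone. Macrophage markers gave 1 lower of 10, with a sum of 113, 134 and 119 FPKM in WT and 92.6, 116 and 132 in KO led by Lyz2. That gene was Mrc1, a mannose receptor of resident macrophages, at 11.5, 9.52 and 12.1 FPKM in WT and 5.52, 4.49 and 5.70 in KO (log2 fold change -1.01, adjusted p 0.0072), with no call without WT library 1 (-0.98, adjusted p 0.039), WT library 3 (-0.94, adjusted p 0.022) or KO library 2 (-0.91, adjusted p 0.025).

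Erythroid markers, with Hbb-bs the most abundant and Hemgn at 0, gave 0 calls of 5 with limma and 0 with an unadjusted p under 0.05, and summed to 2095, 8890.1 and 2167 FPKM in WT and 2794, 5891 and 4608 in KO. Library 2 was highest in each genotype, and the genotypes overlapped. Of 12 T cell and granulocyte markers 0 passed the filter, Elane was at 0 in all 6 libraries, and their sum stayed between 1.08 and 4.28 FPKM. Apart from adipocyte genes, no marker list had more than 1 called gene, and the part of other cell types in the results was not tested.

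The table assigns each gene a biotype, and 21 of its 43 biotypes had a gene above the filter, 8 of them a called gene. Of 11678 protein-coding genes 276 were called higher and 118 lower, or 3.37 percent. Of 2111 genes of other biotypes 43 were called higher and 25 lower, or 3.22 percent, so the shares were close to 3.35 percent for all genes. Within the noncoding genes the shares differed by biotype, and the biotypes were not tested against each other. LincRNA genes had 12 higher and 13 lower of 219 (11.4 percent), miRNA genes 7 and 0 of 80 (8.75 percent), and processed transcripts 6 and 3 of 137 (6.57 percent). Antisense genes had 5 and 4 of 197 (4.57 percent), and processed pseudogenes 11 and 5 of 1189 (1.35 percent). Among 71 snoRNA genes 0 were called with limma, 13 had an unadjusted p under 0.05 (4337 of 13789 over all genes), and 4 passed on adjusted p alone. Among the classes with a called gene, lincRNA was the only one without more increases than decreases.

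**Figure D5:**
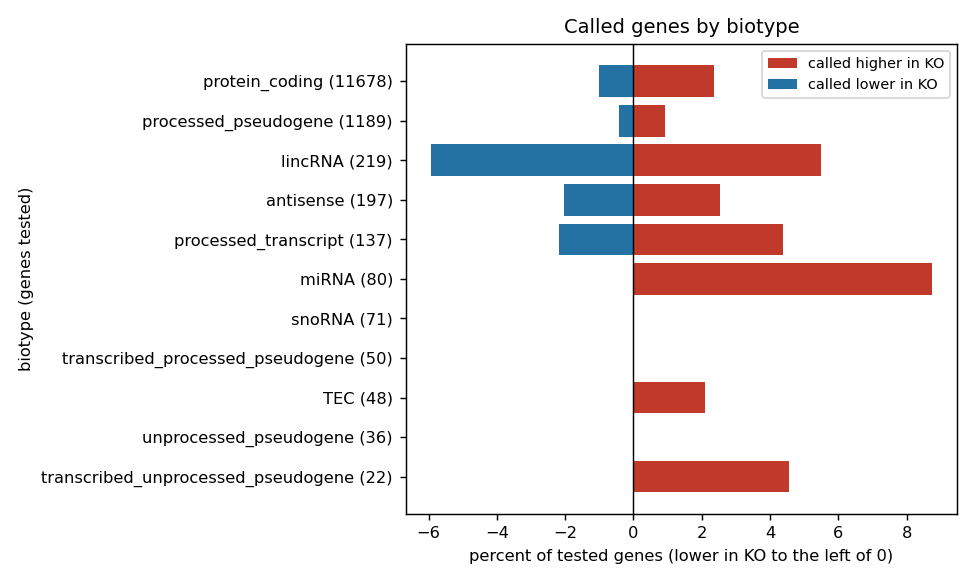
Share of tested genes called higher (right) and lower (left) in KO for each biotype with at least 20 tested genes.

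The bars show long increases and decreases for lincRNA, increases alone for miRNA, and short bars on both sides for protein-coding genes. Levels differ between the classes, with a median of 8.20 FPKM for protein-coding genes and 2.72 for lincRNA genes. The filter uses the mean over both genotypes, so a gene of low level can be tested only because it is high in 1 of them. The lincRNA Gm36543, with a mean of 0.0537 FPKM in WT and 2.94 in KO, is such a gene. Called shares of classes with low levels can be raised by this, and they were not corrected for it. With a mean of at least 5 FPKM required, 28 noncoding genes were called in place of 68. Fewer genes were tested at that mean, and the shares called there are not given, so these counts do not compare the classes.

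The largest noncoding increases after Hnrnpa1l2-ps were these and the miRNA gene Mir483, described below. RP23-218H24.1, now Gm14513, a processed pseudogene on the X chromosome, measured 0.237, 0 and 0 FPKM in WT and 5.07, 11.2 and 4.83 in KO (log2 fold change 3.63, adjusted p 0.0021). RP23-193M19.6, now 5430401H09Rik, a lincRNA on chromosome 12, measured 0.695, 1.32 and 0.728 FPKM in WT and 11.8, 8.91 and 9.14 in KO (log2 fold change 2.90, adjusted p 0.0011). Neither had a WT value near the KO range. RP23-351B24.4, now AI838599, a lincRNA on chromosome 4 with no tested coding gene within 10 kb, measured 8.11, 14.6 and 13.2 FPKM in WT and 71.8, 65.6 and 93.8 in KO (log2 fold change 2.66, adjusted p 0.0021). RP23-451H6.3, now Gm36543, a lincRNA on chromosome 10, measured 0.161, 0 and 0 FPKM in WT and 2.04, 4.36 and 2.42 in KO (log2 fold change 2.59, adjusted p 0.0031). AI838599 was the most abundant of these and clear of WT in each KO library.

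The largest noncoding decreases included transcripts that overlap coding genes. RP23-455C13.4, now Gm44646, overlaps Mybpc2 on the other strand and measured 12.9, 9.97 and 8.12 FPKM in WT and 0.834, 1.37 and 0.813 in KO (log2 fold change -2.84, adjusted p 0.0012). RP23-152P5.2, now Gm10605, overlaps Tpbgl on the other strand and measured 7.42, 9.55 and 3.67 FPKM in WT and 1.66, 0.310 and 0.622 in KO (log2 fold change -2.47, adjusted p 0.017). Both fell with the gene they overlap, the second without a call when WT library 1 (-2.37, adjusted p 0.068) or KO library 3 (-2.39, adjusted p 0.059) was left out. Whether the counting kept strands apart is not stated, so levels of such pairs are uncertain. RP23-370G8.3, now Gm12199, lies antisense within Adamts2 and measured 6.09, 4.54 and 2.96 FPKM in WT and 0.226, 0 and 0 in KO (log2 fold change -3.10, adjusted p 0.0019), while Adamts2 did not change (log2 fold change 0.01, adjusted p 0.98).

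The other large decreases lay beside muscle genes or apart from them. The lincRNA 2310065F04Rik, known as linc-Myh, lies in the chromosome 11 myosin cluster and measured 13.7, 10.7 and 8.01 FPKM in WT and 2.29, 1.78 and 1.84 in KO (log2 fold change -2.17, adjusted p 0.0021). It fell with Myh4, while Myh3 and Myh8 of the same cluster rose. RP23-238F5.3, now A930003A15Rik, a lincRNA on chromosome 16, measured 135, 129 and 85.5 FPKM in WT and 18.1, 21.3 and 16.4 in KO (log2 fold change -2.59, adjusted p 0.0013). RP23-326P7.5, now Gm12319, a lincRNA on chromosome 11 close to Eno3 and Pfn1, measured 102, 73.4 and 70.8 FPKM in WT and 26.3, 16.8 and 21.7 in KO (log2 fold change -1.90, adjusted p 0.0034). All 3 were lower in each KO library.

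Among lncRNAs known in muscle 20 were tested, with H19 higher and linc-Myh lower, and the median was -0.02. Malat1, an abundant transcript of nuclear speckles, measured 17.3, 16.8 and 21.9 FPKM in WT and 30.8, 32.5 and 31.0 in KO (log2 fold change 0.75, adjusted p 0.013). Neat1, the scaffold of paraspeckles, measured 10.2, 12.3 and 14.9 FPKM in WT and 19.3, 18.5 and 25.9 in KO (log2 fold change 0.74, adjusted p 0.041). Both were higher on adjusted p alone, without overlap. The library preparation selected polyA RNA, so transcripts without a tail are reported only as far as they were captured.

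Position was compared between the called noncoding genes and coding genes. Of 68 called noncoding genes 19 overlapped a tested coding gene, and in 10 of the 19 the coding gene was called too, each time in the same direction. Within 10 kb of a tested coding gene lay 31 of the 68, and for 14 of these (45.2 percent) the nearest coding gene was called. For noncoding genes that were not called the same share was 30 of 1008 (2.98 percent). An example is Mvd, a gene of sterol synthesis, at 4.43, 4.66 and 4.48 FPKM in WT and 17.4, 24.6 and 26.9 in KO (log2 fold change 2.20, adjusted p 0.0013), next to the lincRNA RP23-354I24.7, now Gm20735, with a log2 fold change of 2.20. RP24-274J5.2, now 2310016G11Rik, overlaps Myh14, a nonmuscle myosin gene that measured 4.09, 3.85 and 6.04 FPKM in WT and 12.6, 11.3 and 13.9 in KO (log2 fold change 1.37, adjusted p 0.006). RP24-274J5.2 itself (1.25, adjusted p 0.044) kept its call in only 2 of the fits with a library left out. How much of this comes from shared reads was not tested.

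The 7 called miRNA genes were all higher in KO, and their mature sequences are shown because this was the largest class whose calls all went in the same direction. They are RefSeq sequences on GRCm38.p6, matched by symbol for 7 of the 7 called and 49 of the 80 tested miRNA genes. Capitals mark the seed, bases 2 to 8. The 2 Mir3070 genes share both seeds and are listed first, and no seed is shared among the others. Locations, with the strand, are mmu-miR-3070-5p chr12:109587959-109587981 (+), mmu-miR-3070-3p chr12:109587999-109588020 (+), mmu-miR-3070-2-3p chr12:109588648-109588669 (+), mmu-miR-483-5p chr7:142654968-142654989 (-), mmu-miR-483-3p chr7:142654932-142654952 (-), mmu-miR-351-5p chrX:53053315-53053338 (-), mmu-miR-351-3p chrX:53053276-53053296 (-), mmu-miR-23a-5p chr8:84208527-84208548 (+), mmu-miR-23a-3p chr8:84208563-84208583 (+), mmu-miR-24-2-5p chr8:84208839-84208860 (+), mmu-miR-24-3p chr8:84208875-84208896 (+) and mmu-miR-8114 chr1:153899989-153900009 (+). Mir3070b yields the same 5p sequence as Mir3070a.
mmu-miR-3070-5p: aGCCCCUGaccuugaaccuggga
mmu-miR-3070-3p: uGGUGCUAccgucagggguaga
mmu-miR-3070-2-3p: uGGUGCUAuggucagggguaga
mmu-miR-483-5p: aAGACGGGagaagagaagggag
mmu-miR-483-3p: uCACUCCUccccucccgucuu
mmu-miR-351-5p: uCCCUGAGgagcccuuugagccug
mmu-miR-351-3p: gGUCAAGAggcgccugggaac
mmu-miR-23a-5p: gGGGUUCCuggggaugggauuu
mmu-miR-23a-3p: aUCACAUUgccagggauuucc
mmu-miR-24-2-5p: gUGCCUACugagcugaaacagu
mmu-miR-24-3p: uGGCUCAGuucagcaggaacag
mmu-miR-8114: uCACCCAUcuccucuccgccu

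Polyadenylated libraries do not hold mature miRNAs, so these values are levels of longer transcripts that cover the hairpin. Mir483 lies inside Igf2 and measured 4.36, 2.58 and 7.27 FPKM in WT and 38.7, 33.4 and 23.1 in KO (log2 fold change 2.69, adjusted p 0.0061). Its groups did not overlap, unlike those of Igf2, whose reads cover the same place. Mir3070a measured 0.427, 0.235 and 1.06 FPKM in WT and 5.47, 5.17 and 2.98 in KO (log2 fold change 2.26, adjusted p 0.0087). Mir3070b measured 0.809, 1.51 and 2.43 FPKM in WT and 7.77, 6.29 and 5.15 in KO (log2 fold change 1.79, adjusted p 0.014). Both lie within 2 kb of Rlt1 on the other strand and rose with it. Without both WT library 1 and KO library 1 the calls of Mir483 (2.53, adjusted p 0.08), Mir3070a (2.05, adjusted p 0.11) and Mir3070b (1.35, adjusted p 0.079) ended.

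Mir8114 overlaps the start of Glul, the glutamine synthetase gene, and measured 7.07, 8.07 and 8.54 FPKM in WT and 27.0, 18.7 and 20.2 in KO (log2 fold change 1.41, adjusted p 0.0039). Glul measured 21.7, 24.2 and 31.8 FPKM in WT and 59.1, 48.5 and 63.5 in KO and rose as well (log2 fold change 1.13, adjusted p 0.01). Mir24-2 measured 0.625, 1.17 and 1.36 FPKM in WT and 3.28, 3.66 and 4.03 in KO (log2 fold change 1.45, adjusted p 0.0083), and Mir23a of the same cluster on chromosome 8 measured 0.315, 0.619 and 1.03 FPKM in WT and 2.17, 1.83 and 2.12 in KO (log2 fold change 1.18, adjusted p 0.024). The Mir23a call ended without WT library 1 (0.96, adjusted p 0.055), WT library 2 (1.18, adjusted p 0.062), KO library 1 (1.15, adjusted p 0.074), KO library 2 (1.24, adjusted p 0.06) or KO library 3 (1.16, adjusted p 0.073). Mir351, on the X chromosome, measured 2.72, 2.38 and 4.01 FPKM in WT and 6.51, 8.47 and 7.04 in KO (log2 fold change 1.17, adjusted p 0.013), with no call without WT library 1 (1.11, adjusted p 0.056). Mir23a, Mir351 and Glul were not called after median centring, nor without both WT library 1 and KO library 1. Each of the 7 hairpin rows was higher in all KO libraries than in all WT libraries. The same held for every gene called higher, so it adds no support to these calls.

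The text names 3 processed pseudogenes of muscle genes, chosen after their values were seen. Pgk1-rs7 measured 108, 98.8 and 89.7 FPKM in WT and 45.3, 38.1 and 37.3 in KO (log2 fold change -1.29, adjusted p 0.0023), beside -1.30, adjusted p 0.0021 for Pgk1. Tpi-rs11 measured 261, 265 and 218 FPKM in WT and 133, 101 and 113 in KO (log2 fold change -1.10, adjusted p 0.0059), beside -1.05, adjusted p 0.012 for Tpi1. Fabp3-ps1 measured 187, 253 and 184 FPKM in WT and 422, 586 and 577 in KO (log2 fold change 1.34, adjusted p 0.0075), beside 1.37, adjusted p 0.0091 for Fabp3. In these 3 the changes matched those of the parent in direction and nearly in size. Reads of such copies may come from the parent gene, so their own levels are uncertain.

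All 37 genes of the mitochondrial chromosome were listed at 0 in each library. Instead 7 unprocessed pseudogenes of clone RP23-8J15 on chromosome 1, nuclear copies of mitochondrial sequence, held 49707, 47526 and 49950 FPKM in WT and 60917, 67936 and 65188 in KO. That is 9.01, 8.15 and 9.33 percent of the FPKM sum in WT and 11.5, 12.4 and 12.5 percent in KO. The most abundant, RP23-8J15.1, measured 14488, 15539 and 15214 FPKM in WT and 20736, 23329 and 21463 in KO and was higher on adjusted p alone (log2 fold change 0.53, adjusted p 0.032). Reads of mitochondrial transcripts can match such copies, so these rows are uncertain as levels of either. Protein-coding genes held 82.0, 82.7 and 81.6 percent of the sum in WT and 78.3, 77.6 and 77.8 percent in KO. FPKM is relative to the other genes of a library, so these shares bear on every level given here, and the fit with coding genes rescaled called 637 coding genes, 519 higher and 118 lower.

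Over the autosomes and the X chromosome the share of called genes ran from 1.96 percent on chromosome 17 to 5.23 percent on chromosome 1, with medians between 0.12 and 0.20 on the autosomes and 0.17 on the X chromosome. Chromosome 2, which holds Plpp7, had 13 genes called higher and 14 lower of 1107 (2.44 percent).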

How the data were processed

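Polyadenylated RNA of quadriceps from 3 WT and 3 KO mice, 9 days old, was measured by sequencing. The authors aligned reads to GRCm38 with HISAT2 (2.1.0), counted them per gene with featureCounts (1.6.2), and deposited FPKM values, which are scaled for transcript length and depth. The program that made the FPKM values is not given in the sources used here, and since the values have no common step, the depth of the libraries is unknown. All 6 sample columns were assigned to a genotype by their names, with 0 left over.

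Values were taken as log2(FPKM + 0.5) for genes that averaged 1 FPKM or more, and fitted with limma (3.58.1, R 4.3.3) on genotype alone, with a trend in the variance prior. Calls needed a Benjamini-Hochberg adjusted p under 0.05 over 13789 genes and an absolute log2 fold change above 1. Gene positions came from GENCODE M21, and sequences from RefSeq (GRCm38.p6). Tables and plots used Python (3.11.15), pandas (2.3.3) and matplotlib (3.10.9). The steps were tested on simulated data.

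Named genes were Plpp7, the 12 largest called changes in each direction without overlap and without a clone-like name, the 6 largest noncoding calls in each direction, members of the gene lists, and the 3 most abundant genes of a list or biotype. Which list members to describe was decided with the values known, and the genes outside the rule are given as such in the text. The 37 gene lists were chosen with earlier results of these data known, and 626 of 635 list names were found in the table.

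The alternatives were pseudocounts of 0.1 and 1, no filter, a mean of at least 5, median centring, quantile normalization, no variance trend, a block for the leading letters of the column names, log2 Xist as a covariate, X and Y genes left out, coding genes rescaled, adjusted p alone, each library left out, and 2 added after seeing the data, without WT library 1 and KO library 1 and with pairs of mouse names as a replicate block. Chromatin and protein assays of the study were not analysed here.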

Additional observations from a re-analysis of the deposited data

How the results depend on the processing

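With 3 libraries per genotype, small changes would be missed, and depth and strandedness are unknown. No label ties the mouse names that head the columns to replicate numbers or litters. With libraries of the same number in column order, whose names share letters, as a replicate block, a fit chosen after seeing the data, 443 genes were called, 299 higher, 144 lower and 67 noncoding. The named calls lost were Klk1b22, Pfkfb3, Cpt1b and Cfd. Myl2 had an adjusted p of 0.22 and Tnnc1 of 0.13 in this fit. Deviations from the genotype means correlated at 0.04, 0.08 and 0.09 within the 3 pairs, and every library correlated best with its own number. With the leading letters of these names as a block 459 genes were called, 313 higher, 146 lower and 73 noncoding, and 3 named calls were lost. A sex covariate was not run, since no label gives the sex and the 5 Y-linked genes read were at or near 0 in all 6 libraries.

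The number of called genes (462) was 27 with log2 Xist as a covariate, 9 higher and 18 lower, of which 18 were called in the main fit. Xist did not overlap between genotypes, so the covariate and the genotype cannot be told apart. Under that fit 4 noncoding genes were called, and 11 of the named calls remained. With the adjusted p alone 1843 genes passed, 1475 higher, 368 lower and 202 noncoding. The number called higher (319) was 211 at a mean of at least 5 FPKM, 186 with median centring and 208 with quantile normalization. The fit with coding genes rescaled covers coding genes only and called 519 higher, against 276 coding genes in the main fit. Noncoding calls (68) dropped to 28 at a mean of at least 5 FPKM, where fewer genes were tested. Named calls lost were 16 with median centring, 13 with quantile normalization and 14 with no filter. Those lost with centring were Klk1b22, Ankrd2, Atp2a2, Casq2, Cd36, Cpt1b, Gabarapl1, Sdc4, Ccnd3, H19, Snrpn, Hspa5, Cfd, Mir23a, Mir351 and Glul.

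With 1 library left out, calls ranged from 334 to 510, higher from 235 to 349, lower from 99 to 161 and noncoding from 48 to 73. The fit without WT library 1 and KO library 1, chosen after seeing the data, gave 245, 170, 75 and 39. Of the 112 named calls 25 were lost without WT library 1, more than for any other library, and the cause was not tested. Plpp7 kept its call under every alternative.

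Directions changed in these cases. With Xist as a covariate the log2 fold change was -0.04 for Ccnd3, -0.25 for Cfd and 2.66 for Tnnc1, and with quantile normalization it was 0.31 for Meg3. With 1 library left out it ran from -0.68 to 1.41 for Myl2, from -1.03 to 0.58 for Tnnc1 and from -0.13 to 0.15 for Meg3. Without both WT library 1 and KO library 1 Meg3 was at -0.16. The log2 fold change of Meg3 rounded to 0 in the main fit, so its sign has no weight.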

Other observations

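The genes of these 2 paragraphs were outside the rule for named genes and were chosen after their values were seen. Maf and Mafa encode DNA-binding transcription factors that are made in fast muscle fibers among other tissues. Maf measured 39.5, 29.8 and 36.1 FPKM in WT and 8.65, 6.31 and 7.98 in KO and fell (log2 fold change -2.13, adjusted p 0.0012). Mafa measured 59.8, 47.3 and 55.5 FPKM in WT and 14.0, 8.77 and 9.45 in KO and fell as well (log2 fold change -2.30, adjusted p 0.0015). Each KO library was below each WT library for both. Rcan2, which encodes a regulator of the phosphatase calcineurin, measured 9.47, 13.3 and 10.2 FPKM in WT and 50.05, 53.2 and 49.4 in KO and rose (log2 fold change 2.17, adjusted p 0.001). Myom3, a protein of the M-band of the sarcomere, measured 20.1, 21.4 and 32.8 FPKM in WT and 79.1, 127 and 109.9 in KO and rose (log2 fold change 2.07, adjusted p 0.0042). Neither gene had overlapping groups.

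Further metabolic genes moved in both directions. Gpd2, the mitochondrial glycerol-3-phosphate dehydrogenase, measured 31.9, 24.4 and 23.9 FPKM in WT and 6.51, 4.46 and 4.25 in KO and fell (log2 fold change -2.30, adjusted p 0.0015). Stbd1, a protein that binds glycogen, measured 102, 73.6 and 64.7 FPKM in WT and 27.4, 17.2 and 15.2 in KO and fell (log2 fold change -2.0, adjusted p 0.0059). Slc37a4, the glucose-6-phosphate transporter of the endoplasmic reticulum, measured 109, 88.7 and 89.5 FPKM in WT and 24.5, 16.1 and 20.5 in KO and fell (log2 fold change -2.22, adjusted p 0.0013). The groups stood apart for all 3 genes. Idh2, the mitochondrial isocitrate dehydrogenase that uses NADP, measured 149, 215 and 186 FPKM in WT and 585, 809 and 734 in KO and rose (log2 fold change 1.95, adjusted p 0.0021). All genes of these 2 paragraphs kept their calls with each library left out in turn.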
